A study of Mus musculus with 9 samples.

Results

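NF-κB is a family of transcription factors that act as dimers, and the 10 genes described here encode its subunits and the proteins that hold it back. They were taken by symbol from the iris RNA-Seq count files, which list 18349 genes, and all 10 were found there and passed the filter on low counts. The subunit genes were *Nfkb1*, *Nfkb2*, *Rela*, *Relb* and *Rel*. The inhibitors and cofactors of the IκB family were *Nfkbia*, *Nfkbie*, *Nfkbiz* and *Bcl3*, and *Tnfaip3* encodes A20, an enzyme that edits ubiquitin chains.

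Irises were compared between 3 groups of 3 libraries, and each library pooled 3 irises. Sham *VEGFR3* fl/fl mice had PBS on the cornea at 6 weeks of age, whereas the injured *VEGFR3* fl/fl group and the injured *VEGFR3* iLECko group had filter paper with 0.5 μL of 1 M NaOH there for 60 seconds. All groups carried floxed *VEGFR3* and received tamoxifen at 80 mg/kg on days 13 to 17. Only the iLECko mice carried *Prox1*-CreERT2, an inducible Cre driven by *Prox1*, a gene of lymphatic endothelium that other cells such as lens fibers also express. Tissue was collected at 10 weeks of age.

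Libraries held between 16617187 and 18306359 counts, a narrow range of depth. *Flt4*, the gene for VEGFR3, did not fall in the libraries labelled iLECko. It had 277, 353 and 400 counts in the injured fl/fl libraries and 478, 370 and 476 in those labelled iLECko (log2 fold change 0.33, SE 0.15, adjusted p = 0.20 in the quasi-likelihood test of edgeR). Lymphatic endothelium is a small share of an iris, and in bulk RNA fewer cells of a type and less RNA per cell cannot be told apart. Sham replicate 3 stood apart from the other Sham libraries in *Egr1*, an immediate early gene chosen after its values were seen, with 695 CPM against 222 and 207 CPM. The summed level of 4 Y-linked genes was 51.1 to 167 CPM in Sham, 0.804 to 151 CPM in injured fl/fl, where replicate 3 was the low one, and 0.736 to 1.11 CPM in iLECko libraries. The study used mice of both sexes. The Y-linked level, a mark of male mice in a pool, moved with genotype, and their parts in the second comparison cannot be told apart fully.

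In resting cells, IκB proteins keep NF-κB dimers in the cytoplasm. In the canonical branch, receptors for TNF, IL-1 and microbial products activate the IKK complex, IκBα is degraded, and dimers of RELA, c-REL and the *Nfkb1* product enter the nucleus. In the noncanonical branch, the kinase NIK triggers processing of the *Nfkb2* product, which pairs with RELB. Many of these genes are themselves targets of NF-κB in many cell types, so that the response builds up its own inhibitors.

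Promoter sequence is shown because several of these genes are known targets of the factor they encode. RefSeq promoter windows of 300 bases (build GRCm38.p6, 250 bases before and 50 after an annotated start) were given for 7 of the 10 genes, and none was given for *Nfkb1*, *Relb* and *Nfkbiz*. The 10-base consensus κB site was searched on both strands. It was found in a window of 6 of the 7 genes, namely *Nfkb2*, *Rel*, *Nfkbia*, *Nfkbie*, *Bcl3* and *Tnfaip3*, and not in that of *Rela*. Among all 27025 genes with windows, 9.55% had a match. The match lay upstream of the start in a window of 5 of the 7 genes. Among all 32851 windows 7.25% had one there, a share of single windows that was not computed by gene. The 130 bases upstream of the first start with a window are printed 5′ to 3′ on the strand of the gene, with κB matches in capitals. The annotated spans of *Nfkb2*, *Rela* and *Bcl3* begin further upstream, so these starts need not be the first of the gene.
*Nfkb2*, chr19:46304607-46304736, plus strand: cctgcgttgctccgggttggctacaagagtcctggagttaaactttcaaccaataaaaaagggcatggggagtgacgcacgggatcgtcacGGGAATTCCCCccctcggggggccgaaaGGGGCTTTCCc
*Rel*, chr11:23770970-23771099, minus strand: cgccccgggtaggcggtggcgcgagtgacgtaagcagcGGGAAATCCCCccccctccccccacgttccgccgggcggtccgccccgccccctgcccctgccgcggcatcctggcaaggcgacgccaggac
*Nfkbia*, chr12:55492648-55492777, minus strand: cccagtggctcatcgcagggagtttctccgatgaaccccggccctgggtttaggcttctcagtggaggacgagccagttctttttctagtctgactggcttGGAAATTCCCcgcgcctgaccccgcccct
*Nfkbie*, chr17:45555570-45555699, plus strand: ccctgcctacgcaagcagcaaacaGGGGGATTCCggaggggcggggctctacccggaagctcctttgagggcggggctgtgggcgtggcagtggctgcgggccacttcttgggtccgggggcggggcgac
*Tnfaip3*, chr10:19015411-19015540, minus strand: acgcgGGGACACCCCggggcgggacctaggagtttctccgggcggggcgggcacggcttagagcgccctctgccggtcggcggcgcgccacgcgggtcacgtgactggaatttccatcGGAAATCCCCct
*Rela*, chr19:5637411-5637540, plus strand: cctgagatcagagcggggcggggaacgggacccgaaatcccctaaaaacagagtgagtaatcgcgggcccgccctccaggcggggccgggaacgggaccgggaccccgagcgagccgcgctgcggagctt

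In the first *Nfkb2* window, 2 overlapping matches began at positions -39 and -38 and another at -11, counted from the start site. The pair at -39 and -38 makes up the 11 capitals of GGGAATTCCCC, as the pair at -92 and -91 does for GGGAAATCCCC in *Rel*. The match of *Nfkbia* began at -29, that of *Nfkbie* at -106, and those of *Tnfaip3* at -125 and -12. In *Bcl3* the match GGGAAGTCCC lay at positions 3 to 12, just inside the transcribed part. *Nfkb2* had 2 further annotated starts whose windows overlapped and shared the match GGGACTTTCC, and the second *Tnfaip3* start had none. A match describes letters and does not show that a factor bound there.

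**Figure D1:**
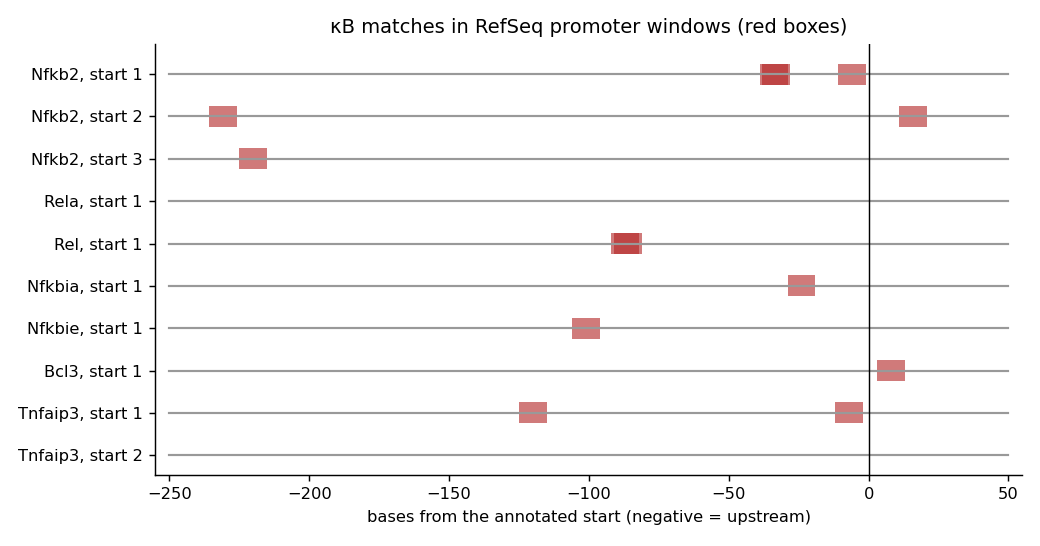
Position of κB matches in the RefSeq promoter windows of 7 genes. The x axis gives bases from the annotated start, each grey line is a window, and red boxes are matches on either strand; *Rela* and the second *Tnfaip3* start have none.

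Across genes, *Nfkbia* and *Rela* were the most abundant of the 10. Levels of different genes were compared as approximate TPM, which divides counts by transcript length. In Sham irises, mean levels were 201 TPM for *Nfkbia*, 107 TPM for *Rela*, 50.9 TPM for *Nfkb1*, 24.4 TPM for *Nfkb2* and 21.0 TPM for *Relb*. Below them came *Bcl3* with 10.3 TPM, *Nfkbiz* with 10.1 TPM, *Tnfaip3* with 6.53 TPM, *Nfkbie* with 5.45 TPM and *Rel* with 2.63 TPM. In Sham, the ranges of the 3 libraries overlapped between *Bcl3* and *Nfkbiz*, *Nfkbiz* and *Tnfaip3*, and *Tnfaip3* and *Nfkbie*, and between no other neighbours in this order. In injured fl/fl irises *Bcl3* came after *Nfkbia* and *Rela* with 66.8 ± 10.9 TPM (SD, n = 3), above *Nfkb1* with 53.3 ± 3.79 TPM (SD, n = 3), and their ranges did not overlap. *Rel* was last in all 3 groups.

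The comparison of injured with Sham fl/fl irises asked how the RNA of this family stood at 10 weeks of age after corneal alkali injury. The inducible subunits and most inhibitors were higher, *Bcl3* by far the most, whereas *Nfkb1* and *Rela* moved little and *Nfkbia* did not pass the test. In total, 7 of the 10 genes were upregulated DEGs (adjusted p under 0.05 in edgeR's quasi-likelihood test and more than 1.5-fold), against 22.1% of the 15010 genes tested. None of the 10 was a downregulated DEG, against 17.5% of all genes. An adjusted p under 0.05 in the upward direction with no limit on size was reached by 9 of 10, against 31.5% of all genes. In the same 9, every injured library was above every Sham library, as in 33.9% of all genes. For the 10 genes the log2 fold changes had a median of 1.09, and for all genes tested 0.01. Over all genes 3323 were upregulated and 2630 downregulated, and with scaling by library size alone, which moved the median of all genes to -0.16, these counts were 2783 and 3523.

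Macrophage marker RNA rose in the same samples. Of 11 macrophage markers 10 were upregulated DEGs after injury, against 22.1% of all genes. The summed level of the 11 was 394 to 406 CPM in Sham and 3308 to 3656 CPM in injured fl/fl libraries. All 7 T cell markers, 6 of 7 dendritic cell markers and 3 of 5 markers of blood endothelium were upregulated too. Of 4 tested neutrophil markers 2 were upregulated, with a summed level of 0.609 to 1.46 CPM in Sham and 76.8 to 173 CPM in injured fl/fl libraries. All 5 pigment cell markers and 4 of 5 smooth muscle markers were downregulated, against 17.5% of all genes. The summed level of the pigment cell markers was 27230 to 29080 CPM in Sham and 3323 to 5737 CPM in injured fl/fl libraries. Pigment cell and smooth muscle markers were present in all libraries. Ciliary body markers, mostly *Best2*, summed to 101 to 112 CPM in Sham, 31.5 to 41.4 CPM in injured fl/fl and 56.3 to 69.1 CPM in iLECko libraries. Corneal epithelium markers summed to 1.80 to 21.2 CPM in Sham and 0.364 to 1.40 CPM in injured fl/fl libraries. Lens markers summed to 0.0563 to 0.339 CPM in Sham and 5.04 to 49.7 CPM in injured fl/fl libraries. Their part in the changes below was not tested.

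**Figure D2:**
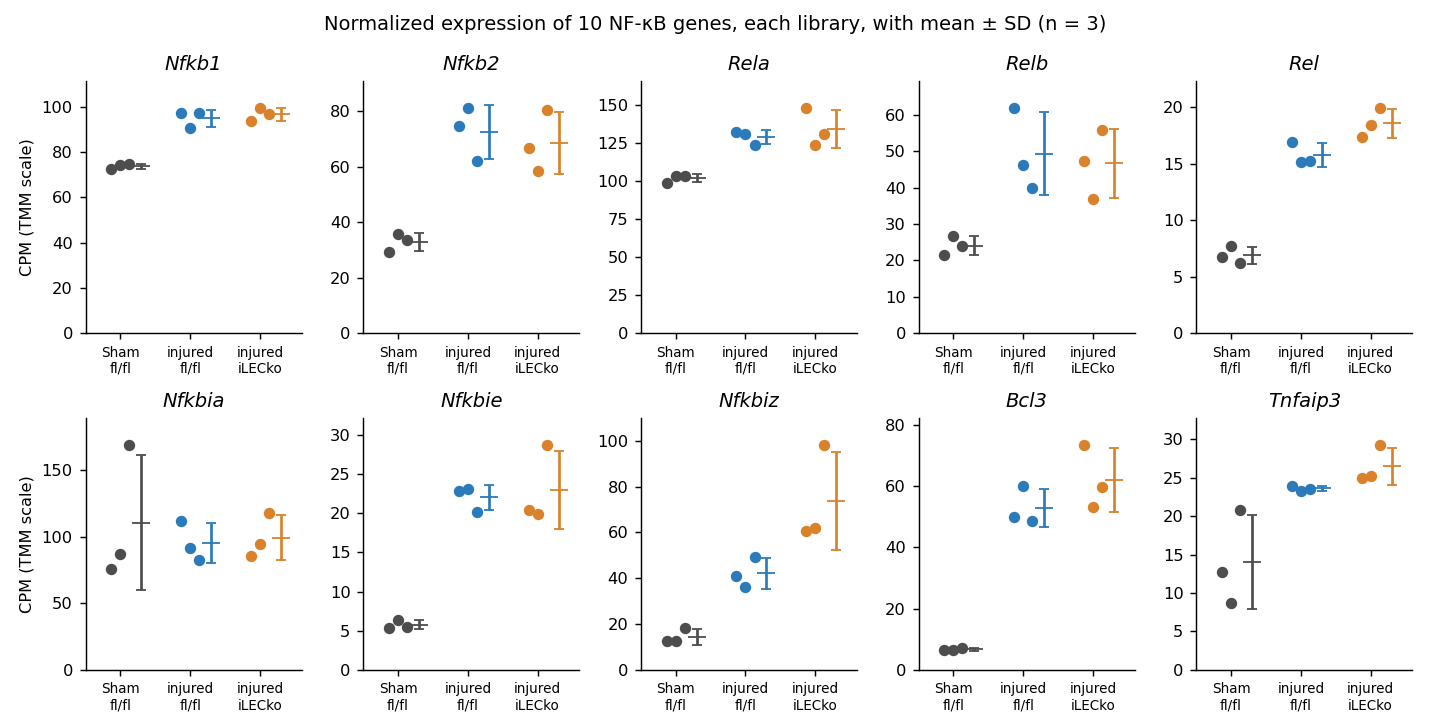
Normalized expression (CPM on the TMM scale, y axis from 0) of the 10 genes in each of the 9 libraries. Points are libraries, and bars are the mean ± SD of 3; all injured libraries of *Bcl3* lie at or above 48.6 CPM and all Sham libraries at or below 7.09 CPM, whereas the groups overlap for *Nfkbia*.

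Among the subunits, the precursor of the noncanonical branch, *Nfkb2*, had 29.3, 35.7 and 33.4 CPM in Sham and 74.6, 81.2 and 62.0 CPM in injured fl/fl libraries. Every injured library lay above the Sham range, with a log2 fold change of 1.15 (SE 0.14, 2.21-fold, adjusted p = 0.000112 by edgeR). The counts of *Nfkb2* (chr19:46300994-46312400) were not whole in 8 of 9 libraries, and its locus overlaps those of *4833438C02Rik* and *Psd*, so reads may have been divided between them. Its partner *Relb* (chr7:19606217-19629438) had 21.4, 26.8 and 24.0 CPM in Sham and 61.9, 46.3 and 39.8 CPM after injury. The spread after injury was wide, but the groups did not overlap, and the log2 fold change was 1.04 (SE 0.19, 2.05-fold, adjusted p = 0.00133 by edgeR).

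*Rel*, which encodes c-REL, a subunit prominent in lymphoid and myeloid cells, was the least abundant of the family. It had 6.75, 7.68 and 6.19 CPM in Sham and 16.9, 15.1 and 15.2 CPM in injured fl/fl libraries. The injured values were tightly grouped, and the log2 fold change was 1.19 (SE 0.12, 2.29-fold, adjusted p = 2.58e-05 by edgeR).

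The change was smaller for *Nfkb1* and *Rela*. *Nfkb1* had 72.6, 74.1 and 74.5 CPM in Sham and 97.1, 90.6 and 97.1 CPM after injury, without overlap. The log2 fold change, 0.37 (SE 0.06, 1.29-fold, adjusted p = 0.000596 by edgeR), stayed under 1.5-fold. *Rela*, the main activating subunit, had 98.9, 103 and 103 CPM in Sham and 132, 131 and 123 CPM after injury. These groups did not overlap either, and the log2 fold change was 0.34 (SE 0.08, 1.26-fold, adjusted p = 0.00442 by edgeR). With scaling by library size alone, *Rela* no longer passed the test (log2 fold change 0.17, adjusted p = 0.0693 by edgeR, in a range of 0.000264 to 0.0693 over the alternatives).

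Of the inhibitors, *Bcl3* changed most. BCL3 is a nuclear IκB protein that binds homodimers of the DNA-binding subunits and can activate or repress their targets. *Bcl3* (chr7:19808462-19822824) had 6.53, 6.32 and 7.09 CPM in Sham and 49.99, 60.0 and 48.6 CPM in injured fl/fl libraries. Its locus overlaps that of *Gm16174*, and its counts were whole in all libraries. No Sham library came near the injured range, and the log2 fold change was 2.99 (SE 0.14, 7.94-fold, adjusted p = 4.12e-07 by edgeR).

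*Nfkbie*, which encodes IκBε, a cytoplasmic inhibitor, had 5.37, 6.38 and 5.46 CPM in Sham and 22.9, 23.1 and 20.2 CPM after injury. The replicates of both groups were close together, and the log2 fold change was 1.94 (SE 0.16, 3.84-fold, adjusted p = 9.74e-06 by edgeR). *Nfkbiz* encodes IκBζ, a nuclear cofactor needed for a second wave of inflammatory genes such as *Il6*. It had 12.4, 12.5 and 18.4 CPM in Sham and 40.8, 36.2 and 49.4 CPM in injured fl/fl libraries. The highest Sham value was that of replicate 3, and the log2 fold change was 1.54 (SE 0.23, 2.92-fold, adjusted p = 0.000387 by edgeR).

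*Nfkbia*, which encodes IκBα, the classical fast feedback inhibitor, did not follow the others. It had 75.8, 86.8 and 169 CPM in Sham, 112, 91.5 and 82.5 CPM in injured fl/fl and 85.3, 94.3 and 118 CPM in iLECko libraries. Sham replicate 3, the library with high *Egr1*, exceeded all others, and the remaining 8 libraries lay between 75.8 and 118 CPM. The log2 fold change of *Nfkbia* after injury was -0.21 (SE 0.28, 95% interval -0.85 to 0.42, adjusted p = 0.531 by edgeR). Without Sham replicate 3 it was 0.23 (adjusted p = 0.294 by edgeR), so that its direction rested on that library.

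*Tnfaip3*, the gene for A20, had 12.7, 8.75 and 20.8 CPM in Sham and 24.0, 23.3 and 23.6 CPM in injured fl/fl libraries. The injured values were almost equal, and the Sham values were spread, again with replicate 3 the highest. The log2 fold change was 0.75 (SE 0.25, 1.68-fold, adjusted p = 0.0280 by edgeR), and this was the weakest of the 7 calls. Without Sham replicate 3 it was 1.14 (adjusted p = 0.000672 by edgeR). The call was lost without Sham replicate 1 (log2 fold change 0.68, adjusted p = 0.0905), Sham replicate 2 (0.50, adjusted p = 0.0552), injured replicate 2 (0.76, adjusted p = 0.0514) and injured replicate 3 (0.75, adjusted p = 0.0556, all by edgeR). It was also lost with scaling by library size alone (0.57, adjusted p = 0.0744) and with only the 6 libraries compared (0.76, adjusted p = 0.0552, both by edgeR).

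**Figure D3:**
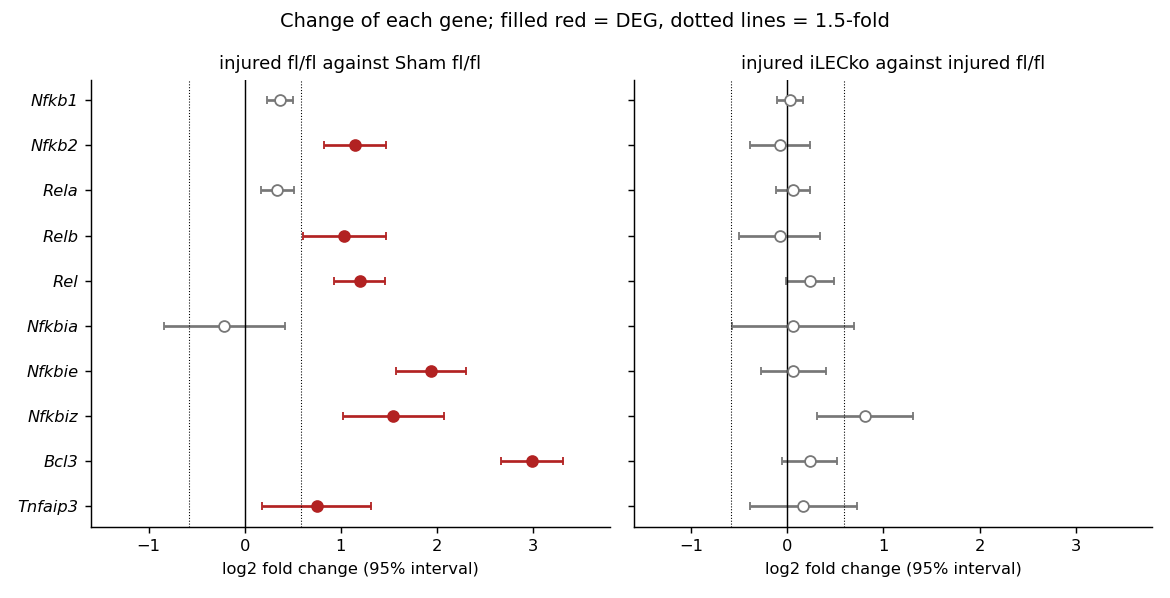
Log2 fold changes with 95% intervals (x axis) for the 10 genes, after injury on the left and between the injured groups on the right. Filled red points are DEGs and dotted lines mark 1.5-fold; 7 genes are filled on the left and 0 on the right.

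Ratios of 2 genes within a library do not depend on scaling between libraries, and 5 were compared between the groups. The ratio of *Nfkb2* to *Nfkb1* counts was 0.404, 0.482 and 0.448 in Sham and 0.768, 0.895 and 0.638 in injured fl/fl libraries, a shift of 0.78 on the log2 scale. The ratio of *Relb* to *Rela* was 0.217, 0.259 and 0.232 in Sham and 0.467, 0.354 and 0.322 after injury, a shift of 0.68. The ratio of *Rel* to *Rela* went from 0.0683, 0.0742 and 0.0598 to 0.128, 0.115 and 0.123, a shift of 0.86. So *Nfkb2* gained on *Nfkb1*, and *Relb* and *Rel* gained on *Rela*, in every injured library. Each of these shifts had p = 0.1 in a two-sided exact permutation test, the smallest that 3 libraries against 3 can give, and an adjusted p of 0.167 over 15 ratio comparisons. The ratio of *Nfkbia* to *Rela* was 0.767, 0.840 and 1.64 in Sham and 0.847, 0.699 and 0.668 after injury, and overlapped (difference -0.47, exact permutation p = 0.3, adjusted p = 0.409).

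**Figure D4:**
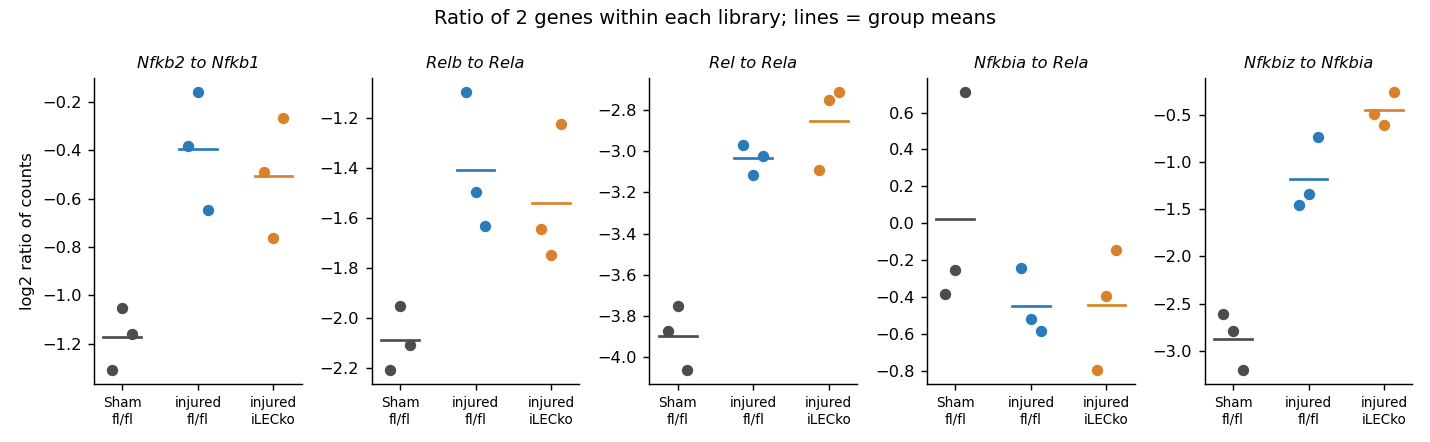
Log2 ratio of the counts of 2 genes (y axis) in each library of the 3 groups. Points are libraries and lines are group means; the first 3 ratios lie higher in every injured library than in every Sham library.

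The comparison of injured iLECko with injured fl/fl irises asked whether the Cre genotype changed these levels after injury. No member was a DEG: there were 0 of 10 in either direction, against 0.573% upregulated and 0.466% downregulated DEGs among all genes. An adjusted p under 0.05 in edgeR's quasi-likelihood test, with no limit on size, was reached by 0 of 10, against 234 of 15010 genes. At an unadjusted p under 0.05 edgeR gave 1 of 10 members, *Nfkbiz*, against 24.5% of all genes. DESeq2 called 1 upregulated member, again *Nfkbiz*, against 2.33% of all genes. For the 10 genes the log2 fold changes had a median of 0.06, and for all genes -0.01.

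*Nfkbiz* had 36.2 to 49.4 CPM in injured fl/fl and 60.7, 61.8 and 98.3 CPM in iLECko libraries. All 3 iLECko libraries were the higher ones, with replicate 3 well above the others. That library was also the highest in the neutrophil markers *S100a8* (60.0, 76.7 and 264 CPM in iLECko replicates 1 to 3) and *S100a9* (82.6, 142 and 481 CPM). The log2 fold change of *Nfkbiz* was 0.81 (SE 0.22, 95% interval 0.31 to 1.31, 1.75-fold, unadjusted p = 0.00530), and the adjusted p of 0.0840 by edgeR missed the threshold. The DESeq2 Wald test gave an adjusted p of 0.0118. When the mean log2 CPM of the Y-linked genes entered the model, the log2 fold change was 0.62 (edgeR adjusted p = 0.604). Without iLECko replicate 3 it was 0.54 (adjusted p = 0.204 by edgeR). The ratio of *Nfkbiz* to *Nfkbia* was 0.364, 0.395 and 0.599 in injured fl/fl and 0.712, 0.655 and 0.833 in iLECko libraries (log2 difference 0.72, exact permutation p = 0.1, adjusted p = 0.167). In Sham it was 0.164, 0.144 and 0.109, so that the 3 groups did not overlap in this ratio.

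*Rel* had 15.1 to 16.9 CPM in injured fl/fl and 17.3, 18.4 and 19.9 CPM in iLECko libraries, without overlap. Its log2 fold change of 0.24 (SE 0.11, 95% interval -0.02 to 0.49, adjusted p = 0.226 by edgeR) did not pass. *Tnfaip3* was likewise higher in all 3 iLECko libraries, at 24.9, 25.2 and 29.3 CPM, with a log2 fold change of 0.17 (SE 0.25, adjusted p = 0.705 by edgeR). With *Nfkbiz*, these made 3 of 10 members whose iLECko libraries all lay above the injured fl/fl libraries, against 12.4% of all genes. *Bcl3* had 73.5, 53.1 and 59.7 CPM in iLECko libraries, overlapping the injured fl/fl range (log2 fold change 0.23, 95% interval -0.05 to 0.52, adjusted p = 0.283 by edgeR).

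For the other 6 members, values of the injured groups overlapped and log2 fold changes lay between -0.08 and 0.06. *Relb* had 47.4, 36.8 and 55.8 CPM and *Nfkb2* had 66.8, 58.5 and 80.6 CPM in iLECko libraries. The 95% interval was -0.50 to 0.34 for *Relb* and -0.39 to 0.23 for *Nfkb2* on the log2 scale. It was narrower for *Nfkb1*, from -0.11 to 0.16, and for *Rela*, from -0.12 to 0.23. *Nfkbie* had 20.4, 19.9 and 28.8 CPM in iLECko libraries, with an interval of -0.28 to 0.40.

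In the same comparison 6 of 11 macrophage markers were downregulated DEGs, against 0.466% of all genes. The summed level of the 11 was 2037 to 2345 CPM in iLECko libraries. These 6 calls were not stable. Over all genes 0 were downregulated with only the 6 libraries compared or without iLECko replicate 2, and 2 with the Y-linked covariate. None of the 4 tested of 7 neutrophil markers was a DEG between the injured groups in the main fit. Their summed level was 76.8 to 173 CPM in injured fl/fl and 143 to 756 CPM in iLECko libraries, of which *S100a8* and *S100a9* were the most abundant. *Mpo* and *Elane*, made by immature neutrophils, were at or under 3 counts in all libraries. *Ngp*, another neutrophil marker, had 12, 8 and 3 counts in injured fl/fl and 6, 217 and 63 in iLECko libraries (log2 fold change 3.56, adjusted p = 0.107 by edgeR). *Camp* had 15, 2 and 8 against 1, 46 and 21 counts, and both *Ngp* and *Camp* were highest in iLECko replicate 2. *Ly6g*, a further marker on the list that did not pass the filter on low counts, was highest in iLECko replicate 3. It had 3, 3 and 4 counts in injured fl/fl and 4, 7 and 86 in iLECko libraries. The part of these cells in the values of *Nfkbiz* was not tested.

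Against Sham, iLECko irises had 7 upregulated DEGs among the 10 genes, against 19.7% of all genes, and 0 downregulated, against 15.0%. This comparison shares its Sham libraries with the injury comparison, so the values are given only side by side. Summed Y-linked RNA was 51.1 to 167 CPM in Sham and 0.736 to 1.11 CPM in iLECko libraries. The parts of sex, injury and genotype therefore cannot be told apart here. The log2 fold change against Sham was 3.22 in iLECko and 2.99 in injured fl/fl irises for *Bcl3*, and 2.35 and 1.54 for *Nfkbiz*. For *Nfkbie* it was 2.004 and 1.94, and for *Rel* 1.43 and 1.19. For *Nfkb2* it was 1.07 and 1.15, for *Relb* 0.96 and 1.04, and for *Tnfaip3* 0.91 and 0.75. With the Y-linked covariate the call of *Tnfaip3* in iLECko irises was lost (adjusted p = 0.112 by edgeR). *Nfkb1* with 0.39 and *Rela* with 0.40 passed the test under 1.5-fold in iLECko irises too.

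The rest of the pathway was read from 8 lists of 95 genes arranged by role, of which 90 passed the filter on low counts. After injury 59 of the 90 were upregulated and 1 was a downregulated DEG, against 22.1% and 17.5% of all genes. The median log2 fold change of the 90 was 1.27. Of 12 tested receptors 11 were upregulated, of 10 ligands 7 were up and 1 down, and of 21 canonical target genes 20 were up. Median log2 fold changes were 2.22 for receptors, 4.23 for ligands, 3.24 for canonical targets and 1.003 for the 4 noncanonical targets, with 4.17 for ligands and 3.23 for canonical targets when genes with at most 3 counts in every Sham library were set at the bound given by 3 counts. The median of all genes was 0.01.

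**Figure D5:**
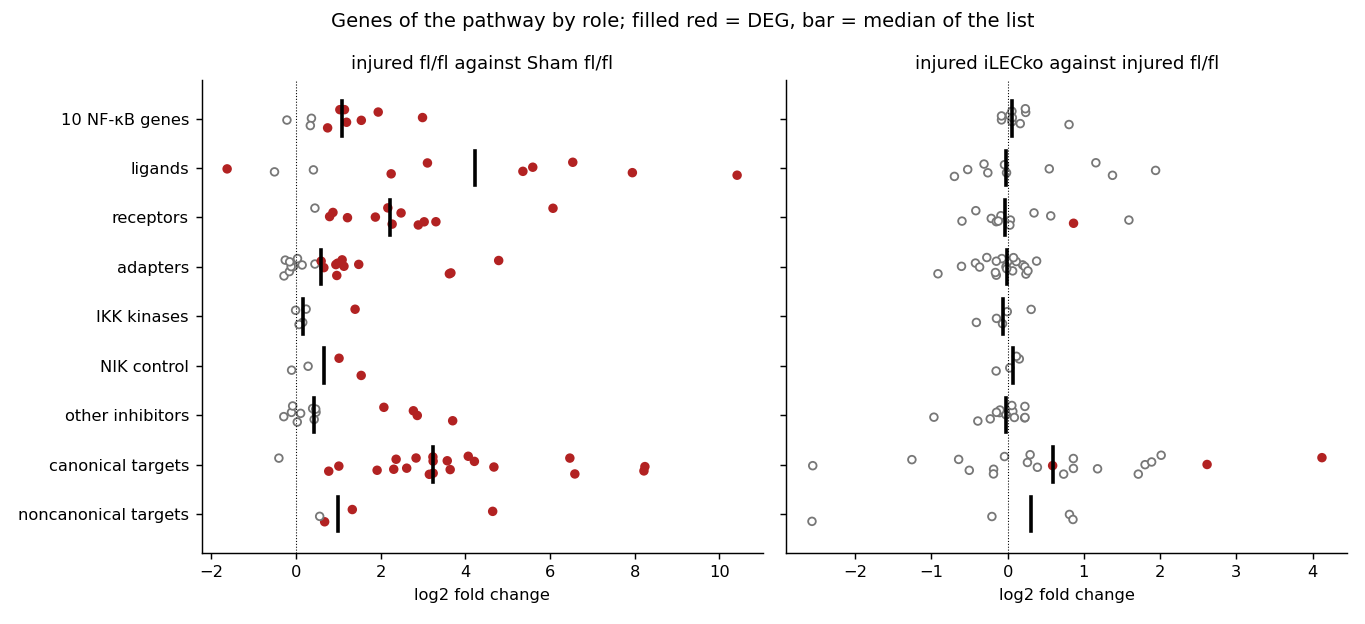
Log2 fold change (x axis) of each tested gene by role in the pathway, after injury on the left and between the injured groups on the right. Points are genes, filled red when DEGs, and bars are list medians; the 5 IKK kinases center near 0 on both sides.

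Among ligands, *Tnfsf11*, which encodes RANK ligand, had 0 counts in all Sham libraries and 20, 156 and 332 in injured fl/fl libraries, at least 58.3-fold higher against 3 counts per library. The bound rested in large part on injured replicate 3 and was 30.8-fold without it. *Tnfsf14* had 0, 0 and 1 counts in Sham and 36, 125 and 167 after injury. *Il1b*, the gene for IL-1β, had 0.859 ± 0.114 CPM (SD, n = 3) in Sham and 32.6, 108 and 101 CPM after injury (log2 fold change 6.54, adjusted p = 1.32e-05 by edgeR). The ligand that fell was *Il33*, an alarmin of barrier and stromal cells, with 64.6, 40.2 and 64.5 CPM in Sham and 27.8, 13.7 and 13.3 CPM after injury (log2 fold change -1.63, adjusted p = 0.00725 by edgeR). Receptors that rose included *Tnfrsf1b*, a TNF receptor (log2 fold change 3.31, adjusted p = 7.87e-08 by edgeR), and *Cd14*, a coreceptor for lipopolysaccharide (3.03, adjusted p = 1.28e-06 by edgeR). *Il18r1*, the IL-18 receptor chain, had 1 count in each Sham library and 58, 69 and 90 after injury.

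Of 5 IKK kinases only *Ikbke*, an IKK-related kinase that is itself inducible, was an upregulated DEG, against 22.1% of all genes. It had 19.8, 20.6 and 18.2 CPM in Sham and 53.1, 49.6 and 51.7 CPM in injured fl/fl libraries (log2 fold change 1.40, SE 0.09, adjusted p = 1.60e-06 by edgeR). *Chuk* and *Ikbkb*, the catalytic subunits of the IKK complex, had log2 fold changes of -0.01 and 0.16, and its scaffold *Ikbkg* 0.07. *Tbk1* had 0.24 (adjusted p = 0.0207 by edgeR). In the control of NIK, *Map3k14*, the gene for NIK itself, had 13.6, 12.8 and 14.0 CPM in Sham and 26.9, 29.1 and 25.7 CPM after injury. It was a DEG (log2 fold change 1.02, adjusted p = 9.63e-06 by edgeR), as was *Birc3*, a ubiquitin ligase in the complex that degrades NIK (1.54, adjusted p = 8.29e-06 by edgeR). The other 2 genes of that complex, *Traf3* and *Birc2*, had log2 fold changes of 0.29 and -0.10.

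Of 21 adapters 11 were upregulated and none was downregulated, against 22.1% and 17.5% of all genes. Among the 11 were *Nod2* (log2 fold change 3.66) and *Card9* (3.62), a sensor and a scaffold protein of immune cells. Of 13 other inhibitors 4 were upregulated. *Zc3h12a*, which encodes an RNase that degrades cytokine mRNA, had a log2 fold change of 2.87 (edgeR adjusted p = 7.77e-07), and *Nfkbid*, another nuclear IκB protein, 2.77 (adjusted p = 3.88e-06 by edgeR). *Tnip3* had 1, 2 and 1 counts in Sham and 15, 22 and 17 after injury, and *Irak3* was the fourth. *Cyld* and *Otulin*, deubiquitinases that oppose the pathway, were not DEGs. The log2 fold change of *Cyld* was -0.11 (adjusted p = 0.35 by edgeR). That of *Otulin* was 0.47 (adjusted p = 0.0032 by edgeR), so it passed the test but stayed under 1.5-fold. Among 4 noncanonical targets, *Madcam1* (log2 fold change 1.33), *Cxcl12* (0.68) and *Cxcl13* were upregulated. *Cxcl12* fell under 1.5-fold with scaling by library size alone (0.50).

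Among canonical targets, *Mmp9*, a gelatinase, had a log2 fold change of 8.24 (edgeR adjusted p = 0.000386), which was 8.896 without Sham replicate 3. *Il6* had 1, 0 and 0 counts in Sham and 19, 61 and 47 in injured fl/fl libraries, and *Saa3* had 1, 0 and 1 in Sham and 437, 95 and 136 after injury. Values of *Saa3* therefore varied greatly between the injured libraries. *Sod2*, the target that was not upregulated, had a log2 fold change of -0.40 (edgeR adjusted p = 0.0326), under 1.5-fold.

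Between the injured groups, 4 of the 90 pathway genes were upregulated DEGs and 0 downregulated, against 0.573% and 0.466% of all genes. The median log2 fold change of the 90 was near 0 (-0.002). The 4 were *Il6*, *Csf3*, *Ier3* and *Cd14*. *Il6*, a target whose induction needs IκBζ in macrophages, had 1.15, 3.57 and 2.70 CPM in injured fl/fl and 16.5, 14.5 and 14.7 CPM in iLECko libraries. No values overlapped, and the log2 fold change was 2.61 (SE 0.37, adjusted p = 0.0263 by edgeR, in a range of 4.45e-09 to 0.245 over the alternatives). *Csf3*, the gene for G-CSF, had 24, 6 and 3 counts in injured fl/fl and 127, 102 and 370 in iLECko libraries (log2 fold change 4.12, SE 0.76, adjusted p = 0.0417 by edgeR, 1.46e-05 to 0.240 over the alternatives). The log2 fold change of *Csf3* was 3.32 without iLECko replicate 3 and 5.43 without injured replicate 1.

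*Cd14* had 60.7, 57.9 and 54.8 CPM in injured fl/fl and 79.5, 111 and 125 CPM in iLECko libraries (log2 fold change 0.86, SE 0.16, adjusted p = 0.0407 by edgeR, 8.75e-05 to 0.286 over the alternatives). *Ier3*, an immediate early survival gene, had 78.8, 70.1 and 87.8 CPM against 121, 126 and 109 CPM, a log2 fold change of 0.59 (edgeR adjusted p = 0.0398, 7.53e-05 to 0.365 over the alternatives) that just exceeded 1.5-fold. None of the 4 calls withstood the omission of every library. The call was lost for *Il6* without Sham replicates 1 or 3 or any iLECko library, and for *Csf3* without any library but injured replicate 1. It was lost for *Cd14* without any library but iLECko replicate 1, and for *Ier3* without any library but injured replicate 3. Without these libraries the adjusted p by edgeR lay between 0.0510 and 0.145.

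The genes with the smallest p in the other lists did not pass. They were *Il33* (log2 fold change 1.38, adjusted p = 0.1003) and *Tnfsf12* (-0.52, adjusted p = 0.113) among ligands, *Card9* (-0.60, adjusted p = 0.0553) and *Tradd* (-0.42, adjusted p = 0.0618) among adapters, and *Otulin* (-0.39, adjusted p = 0.0745) and *Rnf11* (0.23, adjusted p = 0.172) among other inhibitors, all by edgeR. Among noncanonical targets they were *Madcam1* (0.86, adjusted p = 0.110 by edgeR) and *Ccl19* (-2.57, adjusted p = 0.252 by edgeR). The value of *Ccl19* ranged from -3.14 to 1.74 with single libraries left out, above 0 only without injured replicate 1, and was 0.90 with the Y-linked covariate, so that its direction was not fixed. *Ikbke* was lower in all 3 iLECko libraries, at 37.5, 36.1 and 42.7 CPM. Its adjusted p of 0.05002 by edgeR lay just above the threshold, and its log2 fold change of -0.41 was under 1.5-fold. The changes of *Tnfsf12*, *Tradd*, *Otulin* and *Rnf11* were under 1.5-fold too. The remaining IKK kinases and the 4 NIK control genes had log2 fold changes between -0.15 and 0.31.

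Finally, genes with the most similar pattern were sought by the root mean square difference of Sham-centered log2 CPM over the 9 libraries, among genes with a mean of at least 5 CPM. The nearest to *Bcl3* were *Socs3* (difference 0.16) and *Tnfrsf12a* (0.20), against a median of 2.47 over all 12147 genes compared. The nearest to *Nfkbiz* were *Rnf144a* (0.16) and *Moxd1* (0.25), against a median of 1.64. *Nfkb2* was closest to *Acot9* (0.06) and *P4hb* (0.09), *Relb* to *Kdelr3* (0.09) and *Manf* (0.11), *Rel* to *Cyb561* (0.09) and *Rassf1* (0.13), and *Nfkbie* to *Myct1* (0.10) and *Sting1* (0.11). *Tnfaip3* was closest to *Tcim* (0.21) and *Pgm2* (0.21), *Nfkb1* to *Suv39h1* (0.04) and *Mycbp* (0.04), and *Rela* to *Kctd10* (0.05) and *Nckap5l* (0.06). *Nfkbia* had the most distant neighbours relative to its median of 0.48, namely *Gm42368* (0.25) and *2010315B03Rik* (0.26). No member was among the 2 genes nearest to another member.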

How the data were processed

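Iris RNA of 3 groups was sequenced in 9 libraries. Per the labels and the study's methods, the authors aligned reads to mm10 with HISAT2 2.0.4 and Bowtie2 2.2.5 (versions from the submitters' processing notes) and deposited estimated counts per gene without normalization. The counting program and annotation are not given in the sources used here. Before fitting, counts were rounded. A combined table with identical counts and group averages was not used. The study's TPM filter was not applied, since the deposited values hold no TPM, and filterByExpr took its place.

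All 9 libraries were fitted together with edgeR 4.0.16 (R 4.3.3; filterByExpr, TMM, quasi-likelihood test, group as the only term), with Benjamini-Hochberg adjustment over 15010 genes. A DEG changed by more than 1.5-fold at an adjusted p under 0.05. DESeq2 1.42.0, other scalings and filters, the 6 libraries compared, a replicate block, a Y-linked covariate, other thresholds and leaving out each library were alternatives. Approximate TPM used the longest transcript per gene in GENCODE M21. Replicates differed by more than counting noise (chi-square per degree of freedom 5.13 to 76.2), and p-values cover the spread between pools of irises. Bounds against 3 counts cover counting error only. The fit was tested on simulated data.

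The members and lists were chosen with earlier results of these data known. Named were all members, *Flt4*, up to 3 DEGs with the largest changes per direction, list and comparison (otherwise the 2 genes with the smallest p), IKK kinases and NIK control genes, and the 2 genes nearest in pattern to each member, for which 0.5 CPM was added before taking log2. Of the most abundant markers of each list, *S100a8*, *S100a9* and *Best2* were named here, and some marker lists are not reported. *Egr1*, *Sod2*, *Irak3*, *Cyld*, *Mpo*, *Elane*, *Ngp*, *Camp* and *Ly6g* were named after their values were seen. The genotype tags of iLECko replicates 2 and 3 named another VEGFR number, and the titles were followed. A result on 1 further adapter is not reported here.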

Additional observations from a re-analysis of the deposited data

How the results depend on the processing

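Counts of called members after injury and in iLECko against Sham irises stayed within 1.5 times under all alternatives. Between the injured groups, 1 member in place of 0 was called by DESeq2 and with the replicate block (*Nfkbiz*, log2 fold change 0.78, adjusted p = 0.0429). Replicate numbers did not pair the samples (correlations of deviations -0.40 to 0.14), so the block shares only a number, and it lowered the calls over all genes from 86 up and 70 down to 11 and 13. Pathway genes upregulated between the injured groups numbered 7 by DESeq2, 0 with only the 6 libraries compared, with the replicate block and with the Y-linked covariate, 2 at more than 2-fold, and 0 to 3 with single libraries left out. Those downregulated there numbered 1 with upper quartile normalization, 4 by DESeq2 and 0 to 1 with single libraries left out. Downregulated pathway genes after injury numbered 2 with library size only, 5 with no fold change threshold and 1 to 3 with libraries left out. In iLECko against Sham they numbered 2 with 6 libraries, 0 with the Y-linked covariate or at more than 2-fold, and 1 to 2 with libraries left out.

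Directions between the injured groups were not fixed for members near 0. With the Y-linked covariate the log2 fold change was -0.0047 for *Nfkb1*, 0.14 for *Nfkb2* and 0.22 for *Relb*, and 0.26 for *Nfkbia* in iLECko against Sham. With libraries left out it ranged from -0.0074 to 0.048 for *Nfkb1*, -0.21 to 0.023 for *Nfkb2*, -0.020 to 0.11 for *Rela*, -0.23 to 0.12 for *Relb*, -0.086 to 0.19 for *Nfkbia* and -0.13 to 0.16 for *Nfkbie*. *Nfkbia* ranged from -0.43 to 0.23 after injury and from -0.37 to 0.29 in iLECko against Sham, above 0 only without Sham replicate 3. *Ccl19*, a low count gene, ranged from -3.74 to 1.13 after injury and from -3.14 to 1.74 between the injured groups. The causes were not tested. With 3 libraries a group, small changes of single genes were not resolved.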
